A study of Homo sapiens with 6 samples.

Results

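The exon 8-14 deletion allele of ATF6, ex8-14del, was set against a pair of other alleles, the nonsense allele N267star and the exon 2-3 deletion allele ex2-3del, and a gene counted as different where ex8-14del lay outside both. These are 3 of the 6 libraries of the series, chosen by the genotype in the sample labels, and each stands for 1 culture. All 6 libraries come from HEK293T, an established line from human embryonic kidney that is readily transfected, and the study concerns ATF6 alleles found in achromatopsia, in which cone photoreceptors do not work. The 3 cultures overexpressed their allele after transfection with a lipid reagent, on top of the cells' own ATF6 gene, and so did 2 further cultures with the ATF6 labelled WT and the missense allele M67V. A second deposited table gives the WT library a number in place of that name, and the labels do not say what the number stands for, so WT here means the library so labelled. The sixth culture is labelled a non-transfected control, although the growth protocol mentions an empty vector. The labels give neither the time after transfection nor the plasmid dose.

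ATF6 is a transcription factor held in the membrane of the endoplasmic reticulum (ER). When unfolded protein accumulates, it moves to the Golgi, is cut by the site-1 and site-2 proteases and releases its cytosolic part, which carries a transactivation domain and a basic leucine zipper (bZIP) that binds DNA. With the CCAAT-binding factor NF-Y it then turns on ER chaperone and degradation genes. In the GENCODE 29 transcript of ATF6, which has 16 exons and 670 codons, exons 8 to 14 hold 810 coding bases, which is 270 whole codons, from codon 304 to codon 573. This stretch includes the bZIP and the membrane-spanning segment. Exons 2 and 3 hold 165 coding bases, within codons 28 to 83 of the transactivation domain, and the codon that N267star turns into a stop lies in exon 7, before the bZIP. The labels do not say whether the constructs number their exons as this transcript does.

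The libraries held between 16023926 and 16813314 counts. Levels are in CPM, counts scaled to a common library size, and each log2 ratio is followed in brackets by its exact 95% interval from the 2 counts. Intervals cover counting error only. Each group has 1 library, so replicates cannot check any difference, and conditions were compared without a test. The summed level of 11 markers of HEK293T cells lay between 1134 and 1235 CPM, and all 11 reached 1 CPM. Markers of fibroblast or mesenchymal cells summed to between 29.9 and 37.0 CPM and those of epithelial cells to between 7.34 and 10.9 CPM. Markers of blood cells summed to between 4.02 and 7.55 CPM and those of photoreceptors to between 2.02 and 3.79 CPM. In RNA of whole cultures, fewer cells with a response and less RNA per cell cannot be told apart.

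The ATF6 count was far above that of non-transfected cells in each of the 3 cultures, and it was unequal among them. The ATF6 level was 2410 CPM for ex8-14del, 1349 CPM for ex2-3del and 713 CPM for N267star, beside 85.1 CPM in non-transfected cells, 1148 CPM in WT and 1493 CPM in M67V. The ex8-14del count was thus the highest of the 6, at 1.79 times that of ex2-3del (log2 ratio 0.84, 0.81 to 0.86) and 1.76 on the log2 scale above N267star (1.73 to 1.79). A count per gene depends on transcript length, and exons 8 to 14 hold 810 coding bases where exons 2 and 3 hold 165. These ATF6 levels were not scaled to length, so they do not give the ratio of transcript numbers between alleles. The share of this ATF6 difference in the results that follow was not tested.

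A gene was counted as different when ex8-14del was at least 1.5-fold above both other alleles, or below both, with both intervals on that side of equality and at least 5 CPM in 1 of the 3 libraries. Of 11300 genes tested, 24 were above both (0.212% of the genes) and 4 were below both (0.0354%). At 2-fold, 9 genes were above (0.0796%) and 2 below (0.0177%). The N267star library set directly against ex2-3del was 1.5-fold higher in 10 genes (0.0885%) and lower in 24 (0.212%). Of the 24 genes above both, 10 overlap another expressed gene in the annotation, so that reads may be assigned to either, and 14 do not. All 4 genes below both overlap another expressed gene. Of the 24 genes, 8 reached 5 CPM in ex8-14del alone of the 3 libraries, so that they entered the test only through the library in which they are high: RND1, PHOSPHO1, CCDC107, CDKN1C, CHMP3, HIST2H2AA4, PMF1-BGLAP and RASA4. Of the 4 below both, HAS3 and ZACN entered only through the other alleles.

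**Figure D1:**
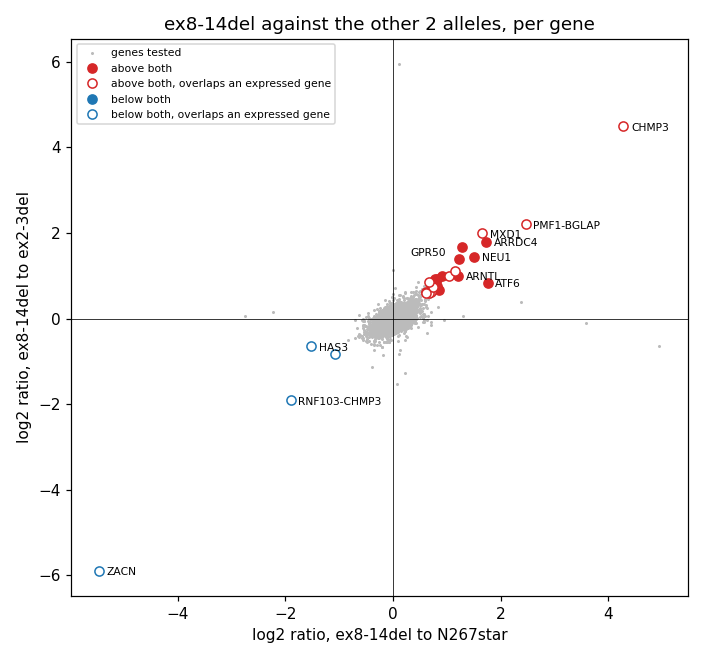
Each point is 1 of 11300 genes, placed by the log2 ratio of ex8-14del to N267star (x axis) and to ex2-3del (y axis). Red points are the 24 genes above both alleles and blue points the 4 genes below both, open where the gene overlaps another expressed gene; ARRDC4, NEU1, MXD1 and GPR50 lie near the diagonal, where both ratios are equal.

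NEU1 encodes the lysosomal sialidase, which removes sialic acid from glycoproteins and glycolipids. Its level was 213 CPM for ex8-14del, 75.01 CPM for N267star and 78.2 CPM in ex2-3del, with 58.7 CPM in non-transfected cells, 150 CPM in WT and 135 CPM in M67V. The ex8-14del library was the highest of the 6, and the 2 other deletion or nonsense alleles lay close together between non-transfected cells and the rest. The log2 ratio was 1.504 (1.41 to 1.60) to N267star and 1.44 (1.35 to 1.54) to ex2-3del, while N267star and ex2-3del differed by -0.06 (-0.17 to 0.05). Against WT, NEU1 was 0.51 higher on the log2 scale (0.43 to 0.58).

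ARRDC4 is an alpha-arrestin, an adaptor between membrane proteins and NEDD4-type ubiquitin ligases. It stood at 118 CPM in ex8-14del, 35.6 CPM in N267star and 33.7 CPM in ex2-3del, and at 36.9 CPM in non-transfected cells, 126 CPM in WT and 109 CPM in M67V. The 6 libraries thus fell in a low set with both other alleles and non-transfected cells, and a high set in which ex8-14del lay between WT and M67V. The log2 ratios were 1.72 (1.59 to 1.86) and 1.80 (1.67 to 1.94), and ex8-14del was within -0.10 of WT (-0.19 to -0.01). TXNIP, another alpha-arrestin gene that responds to glucose, stood at 24.7 CPM in ex8-14del, 26.6 CPM in N267star and 22.8 CPM in ex2-3del, so ex8-14del lay between them.

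MXD1, a partner of MAX that represses MYC target genes, showed the same split of levels. It stood at 72.8 CPM in ex8-14del, 23.0 CPM in N267star and 18.1 CPM in ex2-3del, with 21.1 CPM for non-transfected cells, 73.3 CPM for WT and 65.8 CPM for M67V. The log2 ratios were 1.66 (1.4998 to 1.83) and 2.003 (1.83 to 2.20), and that to WT was -0.01 (-0.13 to 0.11). In the annotation MXD1 overlaps the expressed gene SNRNP27, which leaves its count uncertain.

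GPR50, an orphan receptor related to the melatonin receptors, had a different pattern. It stood at 32.4 CPM in ex8-14del and at 13.8, 12.3, 12.7, 16.4 and 12.9 CPM in N267star, ex2-3del, non-transfected cells, WT and M67V. The ex8-14del level stood alone above the other 5. The log2 ratios were 1.22 (1.01 to 1.46) to N267star, 1.39 (1.16 to 1.63) to ex2-3del and 0.97 (0.76 to 1.20) to WT. RND1, an atypical small GTPase that loosens the actin cytoskeleton, was likewise at its highest in ex8-14del, at 7.67 CPM against 3.08 and 2.30 CPM in N267star and ex2-3del and between 3.91 and 4.53 CPM in the other 3. CDKN1C, the cell cycle inhibitor p57, stood at 5.12 CPM in ex8-14del and between 2.33 and 3.19 CPM in the others, with log2 ratios of 0.85 (0.35 to 1.42) and 0.66 (0.17 to 1.20).

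**Figure D2:**
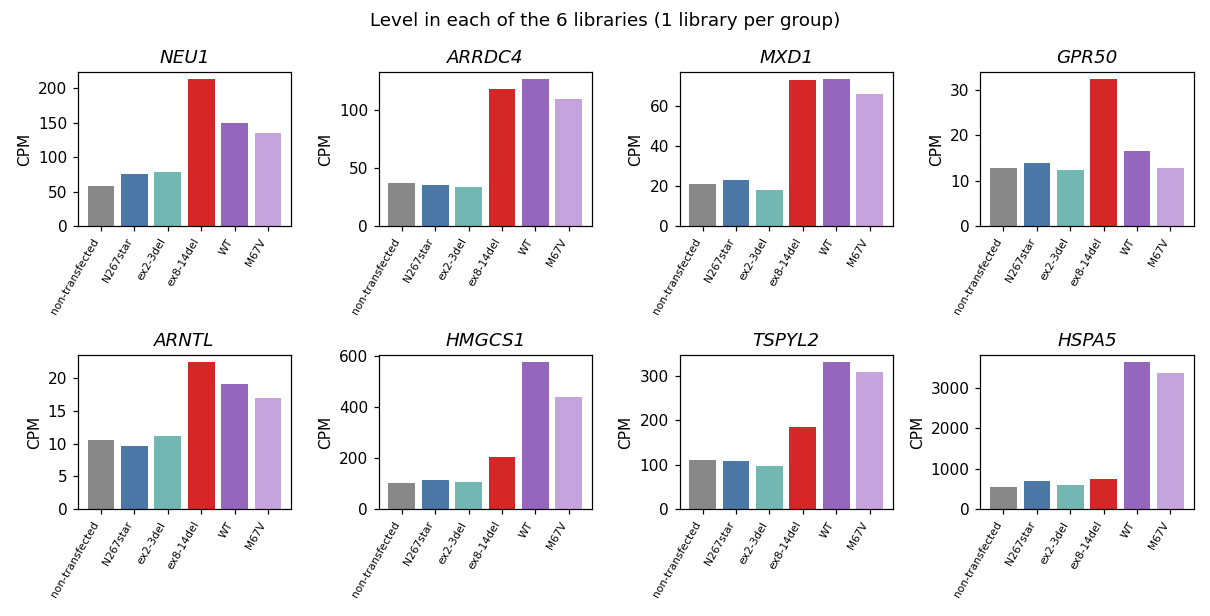
Bars give the level in CPM of 8 genes in each of the 6 libraries, 1 library per group, with ex8-14del in red and each axis starting at 0. NEU1, ARRDC4, MXD1 and ARNTL in ex8-14del are close to or above WT, HMGCS1 and TSPYL2 lie between, GPR50 is high in ex8-14del alone, and HSPA5 at 741 CPM is far under the 3634 CPM of WT.

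ARNTL, which encodes the clock factor BMAL1, stood at 22.4 CPM in ex8-14del, 9.58 CPM in N267star and 11.1 CPM in ex2-3del, with 10.5 CPM for non-transfected cells, 19.1 CPM for WT and 16.9 CPM for M67V. Its log2 ratios were 1.21 (0.95 to 1.498) and 1.002 (0.75 to 1.27). HMGCS1, the enzyme that makes HMG-CoA for sterol synthesis, and TSPYL2, a nuclear protein of the nucleosome assembly family, took intermediate levels. HMGCS1 was at 204 CPM in ex8-14del, 116 CPM in N267star and 107 CPM in ex2-3del, but at 574 CPM in WT and 440 CPM in M67V. TSPYL2 was at 186, 108 and 98.2 CPM in the same 3 alleles and at 331 and 310 CPM in WT and M67V. The zinc finger gene ZNF77 stood at 13.03 CPM for ex8-14del against 6.92 and 6.50 CPM, and PHOSPHO1, a phosphatase of bone mineralisation, at 6.60 CPM against 3.84 and 3.72 CPM.

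The other genes above both were smaller or less certain. RNF122, a RING-type ubiquitin ligase gene, stood at 13.9 CPM against 7.87 and 8.15 CPM. HIST2H2AA4, a histone H2A gene, and RASA4, a Ras GTPase-activating protein, have near-identical copies, so their levels of 6.60 and 6.43 CPM in ex8-14del are uncertain. Among the genes that overlap another expressed gene, MPV17L2, a mitochondrial membrane protein that takes part in ribosome assembly there, was at 106 CPM in ex8-14del, 47.6 and 49.0 CPM in N267star and ex2-3del, and 122 and 134 CPM in WT and M67V. The kinase gene TESK2 was at 15.2 CPM against 9.46 and 8.39 CPM, and BLOC1S3, a subunit of the BLOC-1 complex of lysosome-related organelles, at 43.5 CPM against 25.9 and 25.8 CPM.

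Being above both alleles did not always mean being above non-transfected cells. Of the 24 genes, 17 were also at least 1.5-fold above the non-transfected library with an interval above equality, as were 0.363% of all genes tested. The other 7 were not, namely AKTIP, BAIAP3, BLOC1S3, CCDC107, MPPE1, PHOSPHO1 and RASA4. The ratio to non-transfected cells uses the ex8-14del library that also chose the 24 genes. A share above 0.363% among them therefore follows from that choice. Over all genes, N267star was as far below non-transfected cells in 27 (0.239%) and ex2-3del in 14 (0.124%). AKTIP stood at 21.5 CPM in ex8-14del and 23.7 CPM in non-transfected cells, with between 13.2 and 14.1 CPM in the other 4 libraries. MPPE1 stood at 12.97 and 12.5 CPM in the same pair, at 6.27 and 6.44 CPM in N267star and ex2-3del, and at 12.4 CPM in WT. In AKTIP and MPPE1, then, ex8-14del was near the non-transfected level and both other alleles were under it. In the annotation AKTIP overlaps the expressed gene RBL2 and MPPE1 overlaps GNAL, which leaves both counts uncertain. Just inside the 1.5-fold limit lay CCDC107 (1.502-fold over the nearer allele) and BAIAP3 (1.51-fold), and just outside it EGR1 and HIST2H2BE (1.49-fold each) and RHOB (1.45-fold).

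CHMP3 and PMF1-BGLAP had the highest ratios among the genes above both, and each overlaps a gene with which its summed level was nearly equal in the 3 alleles. CHMP3, part of the ESCRT-III membrane-cutting machinery, stood at 72.1 CPM for ex8-14del against 3.61 and 3.07 CPM, while the read-through gene RNF103-CHMP3 stood at 23.9 CPM against 89.8 and 89.7 CPM. Their sum was 96.0 CPM in ex8-14del, 93.4 CPM in N267star and 92.8 CPM in ex2-3del. CHMP3 was also high in M67V, at 68.3 CPM, but not in WT, at 3.15 CPM. PMF1-BGLAP at 22.4 CPM against 3.96 and 4.79 CPM had its counterpart in PMF1, which was at 63.9 CPM against 76.3 and 78.8 CPM. PMF1-BGLAP was also high in WT, at 19.9 CPM, but not in M67V, at 3.85 CPM. GPRASP2, below both at 15.3 CPM against 32.5 and 27.2 CPM, overlaps ARMCX5-GPRASP2, and the pair summed to 73.5, 79.5 and 74.4 CPM. ZACN had no count in ex8-14del, which allows up to 0.178 CPM, and 5.21 CPM in N267star, so it was at least 29.2-fold lower than there, with a floor of 3 counts in the library. It also had no count in non-transfected cells. HAS3, a hyaluronan synthase, was at 3.15 CPM in ex8-14del, 9.23 CPM in N267star and 5.02 CPM in ex2-3del, and at 3.90 and 3.66 CPM in WT and M67V.

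The promoters of the genes that carry the difference are shown to let their CCAAT boxes be compared, since NF-Y, the DNA partner of ATF6, binds CCAAT. RefSeq promoter entries (GRCh38.p14, a later build than the GRCh37.p13 of the counts) were cut to the 250 bases before the annotated start, 5′ to 3′ on the strand of the gene. The shown regions are those of NEU1 (chr6:31862822-31863071, minus strand), ARRDC4 (chr15:97960453-97960702, plus strand), MXD1 (chr2:69914859-69915108, plus strand), GPR50 (chrX:151176334-151176583, plus strand), ARNTL (chr11:13277540-13277789, plus strand) and, as the ER chaperone for contrast, HSPA5 (chr9:125241344-125241593, minus strand). Capitals mark CCAAT on either strand, which reads ATTGG on the other strand, the E-box CACGTG, and in HSPA5 the ER stress element, which is CCAAT, 9 bases of any kind and CCACG.
NEU1: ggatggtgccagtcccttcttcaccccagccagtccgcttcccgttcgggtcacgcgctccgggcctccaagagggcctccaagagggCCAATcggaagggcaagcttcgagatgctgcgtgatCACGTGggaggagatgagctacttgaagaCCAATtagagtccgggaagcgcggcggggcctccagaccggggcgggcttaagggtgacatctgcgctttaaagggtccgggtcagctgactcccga
ARRDC4: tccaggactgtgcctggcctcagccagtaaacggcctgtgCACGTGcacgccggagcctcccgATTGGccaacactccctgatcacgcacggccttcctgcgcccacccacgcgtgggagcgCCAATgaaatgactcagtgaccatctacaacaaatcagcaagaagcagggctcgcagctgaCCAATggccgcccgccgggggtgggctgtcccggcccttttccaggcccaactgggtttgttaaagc
MXD1: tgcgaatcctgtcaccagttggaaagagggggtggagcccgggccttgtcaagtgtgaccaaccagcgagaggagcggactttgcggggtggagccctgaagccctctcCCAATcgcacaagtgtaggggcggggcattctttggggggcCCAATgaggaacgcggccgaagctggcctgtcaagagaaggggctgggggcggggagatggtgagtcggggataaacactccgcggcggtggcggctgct
GPR50: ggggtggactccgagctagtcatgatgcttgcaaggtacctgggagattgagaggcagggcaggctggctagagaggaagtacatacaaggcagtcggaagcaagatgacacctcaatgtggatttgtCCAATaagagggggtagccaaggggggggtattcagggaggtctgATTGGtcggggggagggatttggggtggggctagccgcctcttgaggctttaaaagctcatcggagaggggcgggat
ARNTL: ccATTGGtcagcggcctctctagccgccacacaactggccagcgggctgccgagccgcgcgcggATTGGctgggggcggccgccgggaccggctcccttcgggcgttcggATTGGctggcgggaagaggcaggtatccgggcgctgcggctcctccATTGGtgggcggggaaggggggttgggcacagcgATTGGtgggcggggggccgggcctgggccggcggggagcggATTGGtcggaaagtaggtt
HSPA5: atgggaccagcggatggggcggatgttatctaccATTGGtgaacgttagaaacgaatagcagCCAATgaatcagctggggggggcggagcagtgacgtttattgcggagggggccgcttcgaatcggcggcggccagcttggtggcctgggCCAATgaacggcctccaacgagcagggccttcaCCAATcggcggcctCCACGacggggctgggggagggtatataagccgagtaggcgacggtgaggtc

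NEU1, MXD1 and GPR50 each held 2 CCAAT boxes, ARRDC4 held 3 and ARNTL held 6. Both boxes of NEU1 and of MXD1 read CCAAT on the strand of the gene, and all 6 of ARNTL read ATTGG there. NEU1 and ARRDC4 each held 1 E-box. Of the 24 genes above both, 19 had a promoter entry, and RND1, RNF122, CDKN1C, RASA4 and AKTIP had none. Of the 19, CHMP3, PMF1-BGLAP, PHOSPHO1, HIST2H2AA4 and CCDC107 entered the test only through ex8-14del. The 19 also hold ATF6, which was introduced. CHMP3 and PMF1-BGLAP had sums with an overlapping gene that were nearly equal in the alleles compared. All of these genes are counted in the shares that follow. CCAAT occurred in 14 of the 19 (73.7%), in 33.0% of the 27305 promoters of the RefSeq table and in 35.8% of the 9413 tested genes that had an entry. At least 2 copies occurred in 13 of the 19 (68.4%) and in 13.4% of the tested genes, and at least 4 copies in MPV17L2, ARNTL, ZNF77, TSPYL2 and BLOC1S3 and in 1.63% of the tested genes. CACGTG occurred in 5 of the 19, namely CHMP3, ARRDC4, NEU1, BLOC1S3 and TESK2, and in 9.34% of the tested genes. The ER stress element, which contains a CCAAT, the related ERSE-II element and TGACGTG, the core of the ATF6 site, were found in 0 of the 19, and in 0.138%, 0.106% and 2.16% of the tested genes. All motifs were searched on both strands, and a match describes these letters in this window and not a bound site.

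HSPA5 itself, the ER chaperone BiP and the classical ATF6 target, held 4 CCAAT boxes with 1 in an ER stress element, and it was close in the 3 alleles. It stood at 741 CPM in ex8-14del, 693 CPM in N267star and 600 CPM in ex2-3del, with 559 CPM in non-transfected cells and 3634 and 3375 CPM in WT and M67V. The log2 ratios were 0.10 (0.06 to 0.13) and 0.31 (0.27 to 0.34), while N267star lay 0.21 above ex2-3del. HSP90B1, the chaperone GRP94, was at 880, 876 and 781 CPM in ex8-14del, N267star and ex2-3del, and HERPUD1, a factor of ER-associated degradation, at 58.1, 58.2 and 54.4 CPM. HSPA5 in ex8-14del was thus a little above both other alleles, while HSP90B1 and HERPUD1 were within counting error of N267star, and all 3 genes were far under their WT levels.

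Of 29 measured ER chaperones and folding enzymes, 0 met the criterion, and the list's median log2 ratio of ex8-14del to the mean of the other alleles was 0.02, beside 0.001 over all genes tested. It was -0.06 against N267star alone and 0.06 against ex2-3del alone. The same list had 17 members at least 1.5-fold higher in WT than in non-transfected cells, where 1.19% of all genes were. When the fold was set aside and both intervals only had to lie on 1 side, 6.31% of all genes were above both alleles and 5.16% below both. By that looser criterion HSPA5, DNAJB11, SDF2L1 and P4HB were above and DNAJC10, ERP44 and TXNDC5 below. P4HB, a disulfide isomerase, stood at 967 CPM for ex8-14del against 723 and 701 CPM, and SDF2L1, a cofactor of BiP, at 42.6 CPM against 32.0 and 30.8 CPM. Of 25 genes of ER-associated degradation, 0 met the 1.5-fold criterion and RNF5 and NPLOC4 the looser one, with a median of -0.01. The 25 genes of the XBP1 and IRE1 branch had a median of -0.03, with 2 above and 5 below by intervals, and the 22 genes of N-linked glycosylation one of -0.02, with 0 above and ALG6 and RPN2 below. Genes of ER calcium handling had the lowest median, -0.10 over 13 members, with 0 above by intervals and ATP2A2, ITPR3, STIM2 and SARAF below.

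**Figure D3:**
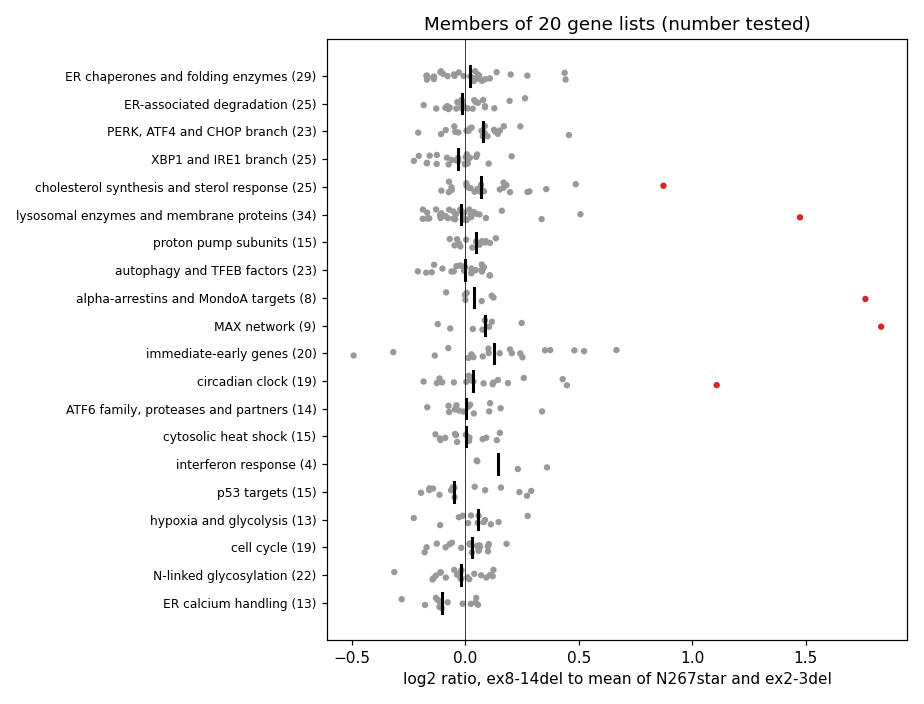
Each point is a member of 1 of 20 gene lists, placed by the log2 ratio of ex8-14del to the mean log2 level of N267star and ex2-3del, with the list's median as a black bar and the number tested in brackets. Red points met the 1.5-fold criterion, which 1 gene did in each of 5 lists (HMGCS1, NEU1, ARRDC4, MXD1 and ARNTL) while the medians lay between -0.10 and 0.14. The rule for named genes holds all 5, and the lists were chosen with earlier results of these data known. That each of the 5 lists holds 1 such gene is therefore not a separate result.

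Several sterol genes were above both other alleles by small amounts. Of 25 genes of cholesterol synthesis and sterol response, HMGCS1 met the 1.5-fold criterion, and the median was 0.07. By intervals 9 were above both alleles and 0 below, beside 6.31% and 5.16% of all genes tested. An interval narrows as counts rise, so genes with high counts meet that criterion at smaller ratios. MVD, the mevalonate diphosphate decarboxylase, stood at 47.9 CPM for ex8-14del against 34.1 and 34.2 CPM, and FDFT1, squalene synthase, at 188 CPM against 154 and 157 CPM. MVK, mevalonate kinase, was at 31.8 CPM against 25.1 and 24.5 CPM and overlaps the expressed gene MMAB. WT was at 47.4 CPM for MVD, 182 CPM for FDFT1 and 22.3 CPM for MVK.

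NEU1 alone met the 1.5-fold criterion among the lysosomal genes, a list chosen with earlier results of these data known. Of 34 genes for lysosomal enzymes and membrane proteins, 1 met the criterion, and the median was -0.02. By intervals 3 were above (NEU1, GLA and TMEM55B) and 5 below (LIPA, SCARB2 and PPT1 among them), beside 6.31% and 5.16% of all genes tested. GLA, alpha-galactosidase A, reached 162 CPM for ex8-14del, with 114 CPM in each of the others and 128 CPM in WT. Among 15 subunits and accessory proteins of the proton pump, 0 met the criterion, ATP6V0C and ATP6V1F were above by intervals and the median was 0.05. Among 23 genes of autophagy and its TFEB factors, 0 met it, ATG9A was above by intervals and the median was -0.001, with 0 below by intervals in either list.

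ARRDC4 and MXD1 were likewise the members of their lists that met the criterion, and these lists too were chosen with earlier results known. Of 8 genes in the list of alpha-arrestins and MondoA-linked genes, ARRDC4 alone met either criterion, and the median was 0.04. Of 9 genes of the MAX network, MXD1 met the 1.5-fold criterion and MYC the looser one, at 173 CPM against 149 and 144 CPM. In the clock list of 19 genes ARNTL met the criterion, and PER1, a repressor of the clock, the D-box factor DBP and the kinase gene CSNK1E were above by intervals too. That looser criterion placed 6.31% of all genes tested above and 5.16% below. NR1D2, the nuclear receptor REV-ERB beta, was below both at 71.9 CPM against 83.7 and 79.6 CPM, and the list's median was 0.04. PER1 stood at 135 CPM for ex8-14del against 96.6 and 104 CPM, and at 285 and 311 CPM in WT and M67V.

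Immediate-early genes, which are switched on within minutes of a stimulus, had a median of 0.13 over 20 members. EGR1, JUN, JUNB, JUND, SRF and KLF6 were above both alleles by intervals and 0 were below, and 0 met the 1.5-fold criterion. Over all genes tested, 6.31% were above and 5.16% below by intervals. EGR1 stood at 7.79 CPM in ex8-14del, 5.21 CPM in N267star and 4.55 CPM in ex2-3del, beside 3.60 CPM in non-transfected cells, and JUNB at 18.7 CPM against 14.0 and 12.1 CPM. In the PERK, ATF4 and CHOP list of 23 genes 7 were above by intervals and 1 below, with a median of 0.08. CHAC1, which breaks down glutathione, stood at 11.01 CPM against 7.39 and 8.63 CPM, and the cystine transporter gene SLC7A11 was lower at 52.4 CPM against 60.1 and 60.8 CPM.

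The remaining lists held 0 genes at 1.5-fold. The shares over all genes tested were 6.31% above and 5.16% below by intervals. By intervals, 3 of 15 cytosolic heat shock genes were above and 4 below, with a median of 0.003, and 1 of 15 p53 targets was above and 1 below, with a median of -0.05. Of 13 hypoxia and glycolysis genes 3 were above and 1 below (median 0.06), and of 19 cell cycle genes 4 were above and 3 below (median 0.03). Among 14 relatives, proteases and partners of ATF6, NFYC, a subunit of NF-Y, was above by intervals at 80.2 CPM against 69.9 and 74.1 CPM, with a list median of 0.003. Only 4 of 18 interferon response genes reached 5 CPM, with a median of 0.14 and 0 beyond either criterion.

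Several genes above both alleles were also high with WT and M67V. The ratio of WT to the non-transfected library shares no library with that of ex8-14del with N267star and ex2-3del, so the lists can be set side by side. Of the 24 genes above both, 10 (41.7%) were at least 1.5-fold higher in WT than in non-transfected cells, and these were 7.41% of the 135 genes higher in WT (1.19% of the genes tested). In M67V 12 of the 24 were higher, which was 7.84% of the 153 genes higher there (1.35% of the genes tested). The 10 include PMF1-BGLAP, and the 12 include CHMP3 and PHOSPHO1. PMF1-BGLAP, CHMP3 and PHOSPHO1 entered the test only through ex8-14del, so their place among the shared genes rests partly on the filter. The summed level of PMF1-BGLAP and of CHMP3 with an overlapping gene was nearly equal in ex8-14del, N267star and ex2-3del. Among genes that overlap no expressed gene, ARNTL, ARRDC4, ATF6, HMGCS1, NEU1 and TSPYL2 were higher in WT, and ATF6 was introduced in each. Across the 8362 such genes without ATF6, the 2 log2 ratios had a Pearson correlation of 0.0002 and a Spearman correlation of -0.19. Genes are not independent replicates.

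**Figure D4:**
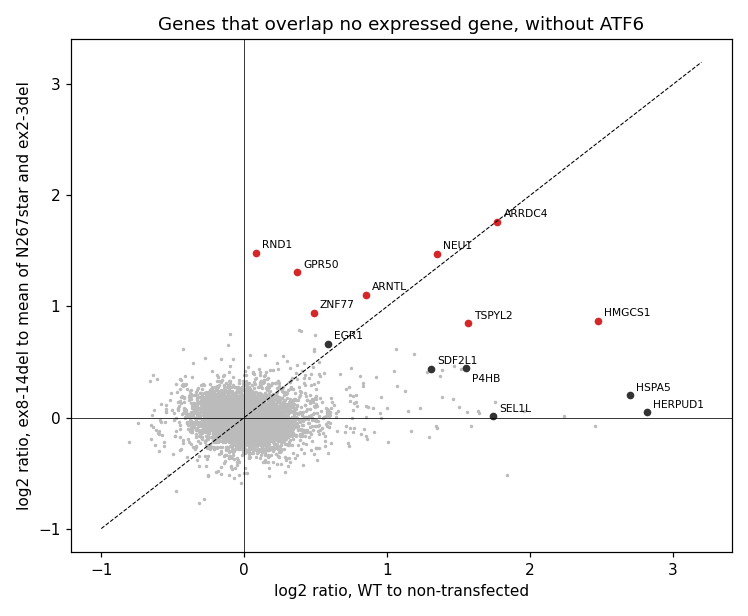
Each point is a gene that overlaps no expressed gene, without ATF6, placed by the log2 ratio of WT to non-transfected cells (x axis) and of ex8-14del to the mean of N267star and ex2-3del (y axis); the 2 axes share no library and the dashed line marks equal ratios. ARRDC4 (1.77 and 1.76) lies on the line and NEU1 (1.35 and 1.47) just above it, HMGCS1 (2.48 and 0.87) lies under it, and HSPA5 (2.70 and 0.20) and HERPUD1 (2.82 and 0.05) lie near 0 on the y axis.

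The genes higher in WT had very unequal ratios in ex8-14del. Among 38 genes that were at least 2-fold higher in WT, overlap no expressed gene and are not ATF6, the median log2 ratio was 1.47 in WT against non-transfected cells and 0.15 in ex8-14del against the mean of the other alleles. Expressed as a percentage of the WT log2 ratio, the ex8-14del ratio had a median of 7.66% and quartiles of 0.99% and 31.5%. It was 109% for NEU1, 99.5% for ARRDC4, 58.0% for the histone gene HIST2H2BE and 54.2% for TSPYL2, which were the 4 genes at 50% or more. It lay between 10% and 50% for 14 genes, among them ARID4A (48.5%), HMGCS1 (35.2%), SDF2L1 (33.4%), PER1 (30.9%) and P4HB (28.4%). It was under 10% for 20 genes, among them CRELD1 (7.90%), HSPA5 (7.42%), CALR (4.91%), HYOU1 (3.43%), PDIA4 (3.15%), MANF (2.29%), HERPUD1 (1.62%) and SEL1L (0.65%), and 8 of the 20 were below 0. The 8 include FAM174B and RNASE4, which reached 5 CPM in ex2-3del but in neither N267star nor ex8-14del. FAM174B and RNASE4 thus entered the test only through a comparator in which they are high, and a value below 0 follows partly from that. By intervals 14 of the 38 were above both alleles and 0 below, beside 6.31% and 5.16% of all genes tested. Genes close to silent in all of N267star, ex2-3del and ex8-14del are not among the 38, since they did not reach 5 CPM there.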

How the data were processed

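Total RNA of HEK293T cultures was sequenced, per the labels' protocols, with 1 library per genotype. The authors deposited each estimated count per gene symbol, a count that need not be whole, with no normalization. The submitters' processing notes name GRCh37.p13 and DESeq; no source used here gives the aligner, counter or strand setting, so antisense and overlapping genes cannot be told apart. The table's placeholder of 0.028 was set to 0, 28 of 38072 rows with names turned into dates (0.215% to 0.231% of the counts) were left out, rows sharing a symbol were summed to 37993 symbols, and values were rounded. A second deposited count table (6 columns of per-sample values) and the authors' comparison sheets were not used.

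Library sizes were scaled with TMM factors between 0.985 and 1.01 (edgeR 4.0.16, R 4.3.3). Log2 ratios used a prior count of 2. The 95% intervals are Clopper-Pearson, conditional on the sum of both counts. Python 3.11.15 was used with scipy 1.17.1, pandas 2.3.3, numpy 2.4.6 and, for plots, matplotlib 3.10.9. The floor of 3 counts is between 0.177 and 0.189 CPM. Intervals and floors cover counting error only, since reads amplified by PCR and lacking molecular identifiers do not each stand for 1 molecule. GENCODE 29 (GRCh38) served for overlaps, with 99.4% of tested genes matched and 26.0% overlapping a gene of at least 5 CPM. The steps were tested on simulated counts that held counting error only, drawn from a mean shared by all libraries. With no variation between cultures, that check cannot say how many calls arise between single cultures.

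The members and the 20 gene lists were chosen with earlier results of these data known. The rule for named genes took ATF6, NEU1, ARRDC4, MXD1, GPR50, HSPA5, HSP90B1, HERPUD1, HMGCS1, TXNIP, EGR1 and ARNTL, the 10 largest gaps in each direction without overlapping genes, and up to 4 members per list. Some list members are not reported here by name. Other named genes, the percentage of the WT ratio and the promoter motifs were chosen after values were seen. Alternatives varied scaling, filter, prior count, rounding, fold and comparator.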

Additional observations from a re-analysis of the deposited data

How the results depend on the processing

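No paired analysis was possible because each genotype has 1 library and the labels give no replicate numbers, and no library could be left out within a group. The counts of genes above and below both alleles were 24 and 4. They were 41 and 22 with a minimum of 1 CPM, 49 and 25 with no filter beyond 1 count, 9 and 2 at 2-fold, and 713 and 583 with no fold. Against N267star alone they were 46 and 15, against ex2-3del alone 40 and 19, and without overlapping genes 14 and 0. All 24 genes were kept under RLE scaling, a prior count of 0.5 and unrounded values, and 22 of them without TMM. N267star was higher than ex2-3del in 56 genes and lower in 85 at 1 CPM, in 76 and 112 with no filter, and in 4 and 6 at 2-fold. Of 160 list medians under the alternatives, 5 left the 95% order-statistic range of the members' own ratios around the median, a wide range in short lists, and 11 in 5 lists changed sign. Against ex2-3del alone the chaperone median was 0.0598, and against N267star alone it changed sign to -0.0637. Apart from it and heat shock, medians that changed sign were at most 0.0207 in size. Within that range the interferon median still went from 0.14 to 0.0506 and the hypoxia median from 0.0551 to 0.0255 at 1 CPM, and the alpha-arrestin median from 0.0395 to 0.00642 with no filter. Without TMM the degradation median was -0.0240. Against N267star alone the medians were 0.15 for the MAX network, -0.0489 for cytosolic heat shock and -0.12 for ER calcium handling. The cause was not tested. All 96 gaps of named genes under 6 alternatives moved by less than counting error. The alternative filters cannot change the gap of a gene, and the comparator was not varied for these gaps. Depth limits genes near 5 CPM, such as RND1 and CDKN1C, whose intervals are wide.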

Other observations

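A few genes were higher in ex2-3del than in both N267star and ex8-14del, without the 1.5-fold criterion being required against both. FAM174B, a membrane protein gene, stood at 9.93 CPM in ex2-3del, 3.43 CPM in N267star, 4.05 CPM in ex8-14del and 3.11 CPM in non-transfected cells, and at 11.5 and 13.9 CPM in WT and M67V. WIPI1, which binds phosphoinositides in autophagy and overlaps the expressed gene ARSG, was at 7.56 CPM in ex2-3del against 4.50 and 5.29 CPM in N267star and ex8-14del, and at 13.2 and 14.4 CPM in WT and M67V. RNASE4, a secreted ribonuclease gene, was at 5.85 CPM against 3.61 and 4.34 CPM, and at 10.3 and 10.5 CPM in WT and M67V. Of N267star, ex2-3del and ex8-14del, FAM174B and RNASE4 reached 5 CPM in ex2-3del alone. Both thus entered the test only through the library in which they are high. EML6, of a microtubule-binding protein family, was at 18.1 CPM in ex2-3del and between 8.15 and 11.2 CPM in the other 5 libraries.

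In N267star the overlapping gene ATP6V1C2, a proton pump subunit, was at 70.2 CPM against between 8.30 and 16.02 CPM in the other 5 libraries. C9orf24 and FAM219A were at 21.8 and 37.3 CPM in ex2-3del, at 47.7 and 12.2 CPM in N267star, and at 47.7 and 12.8 CPM in ex8-14del. C9orf24 was thus low in the library in which FAM219A was high. Whether the same reads were assigned to either gene was not tested, so neither level is certain. These genes were chosen after their values were seen.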
